A study of Mus musculus with 2 samples.

Results

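Histone modifying enzymes and Polycomb proteins were compared between STHdhQ111 and STHdhQ7, 2 mouse cell lines derived from the striatum at embryonic day 14. The genes were picked by symbol, and the set was chosen with earlier results of these data known. The symbols covered histone deacetylases (Hdac), sirtuins (Sirt), lysine demethylases (Kdm) and acetyltransferases (Kat, Crebbp, Ep300). They also covered Polycomb subunits and chromobox proteins (Ezh, Eed, Suz12, Jarid2, Rnf2, Ring1, Bmi1, Cbx), and methyltransferases (Mll, Setdb, Suv39h, Ehmt, Dot1l, Prmt). Of the 23176 genes in the authors' deposited table, 73 carried such a symbol, and 70 of these had been tested by the authors. The remaining genes were near 0. Kdm4d was listed at 0.181 FPKM in STHdhQ111 and 0.152 FPKM in STHdhQ7. Prmt8 was listed at 0.0432 FPKM in STHdhQ111 and 0.0875 FPKM in STHdhQ7, and the Y-linked Kdm5d was listed at 0 in both lines.

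The STHdhQ111 line has the genotype HdhQ111/Q111 and STHdhQ7 the genotype HdhQ7/Q7, so both copies of the huntingtin gene carry the longer CAG tract in STHdhQ111 and the shorter one in STHdhQ7. Both lines have the strain label 129SvEv/CD1 and fewer than 15 passages. Both were grown at 33 °C and then held at 39 °C for 2 days, a step meant to halt cell division. Each line's title names 3 replicates, but the deposited value is 1 combined FPKM per line (fragments scaled to transcript length and sequencing depth), without a replicate spread. Each genotype is 1 line, so genotype and the history of the line cannot be told apart.

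Acetyl groups on histone tails are added by acetyltransferases such as CBP and p300 and removed by deacetylases and sirtuins. Polycomb repressive complex 2 (PRC2) methylates histone H3 at H3K27 through Ezh2 or Ezh1, and Polycomb repressive complex 1 (PRC1) reads that mark through chromobox proteins and ubiquitinates histone H2A. These enzymes are known in Huntington's disease research because mutant huntingtin binds CBP and because deacetylase inhibitors have been tried in its models.

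The lines carried few markers of mature striatal cells. Of 8 striatal neuron markers in the table, 7 were under 0.5 FPKM in both lines. So were 4 of 5 neuronal markers, 5 of 6 oligodendrocyte and astrocyte markers, and all 6 leukocyte and microglial markers. The exceptions were not called (authors' q above 0.05). Penk was listed at 6.49 FPKM in STHdhQ111 and 2.85 FPKM in STHdhQ7, and Tubb3 at 3.62 FPKM in STHdhQ111 and 2.42 FPKM in STHdhQ7. Aldh1l1 was listed at 9.29 FPKM in STHdhQ111 and 10.4 FPKM in STHdhQ7. Of 6 tested mesenchymal markers, 2 were called higher in STHdhQ111 (authors' q of 0.05 or less) and 4 were not called. Of all tested genes, 6.35% were called higher and 7.17% were called lower. The collagen gene Col1a1 rose to 1487 FPKM in STHdhQ111, against 452 FPKM in STHdhQ7, and Col1a2 rose to 533 FPKM in STHdhQ111, against 11.5 FPKM in STHdhQ7. These 2 genes make up most of the difference in the list's sum, 2603 FPKM in STHdhQ111 and 996 FPKM in STHdhQ7, while the uncalled Acta2 was listed at 311 FPKM in STHdhQ111 and 342 FPKM in STHdhQ7. Of 5 tested neural progenitor markers, 3 (Nes, Sox2 and Pax6) were called lower in STHdhQ111 and 2 (Slc1a3 and Vim) were not called. Slc1a3 was listed at 5.04 FPKM in STHdhQ111 and 2.79 FPKM in STHdhQ7. Vim was listed at 2483 FPKM in STHdhQ111 and 3303 FPKM in STHdhQ7. The untested Hes5 was listed at 0 in both lines. The part of these differences in the values of the histone modifiers was not tested.

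Most histone modifier and Polycomb genes had close levels in the 2 lines, and the 4 that were called were all lower in STHdhQ111. A gene is referred to as called where the q-value in the authors' deposited table, from their Cuffdiff test, was 0.05 or less. Of the 70 tested genes 4 were called (5.71%), against 13.5% of all 12740 tested genes. None was called higher, where the share of all tested genes was 6.35%. The 4 called lower, where that share was 7.17%, were Hdac9, Hdac11, Ezh2 and Cbx5. The share called lower was thus near that of the whole table. In the same comparison 11 of 20 proliferation genes were called lower, and their part in these calls was not tested. At an unadjusted p of 0.05 or less in the authors' deposited table, 0 were higher, against 9.42% of all tested genes. At the same p, 7 were lower, against 11.8% of all tested genes, the additional ones being Suv39h1, Cbx2 and Kat2b. In the log2 ratio of (FPKM + 0.5), STHdhQ111 over STHdhQ7, 0 genes reached 1 (8.34% of all tested genes). The same 4 called genes reached -1 (10.3% of all tested genes).

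**Figure D1:**
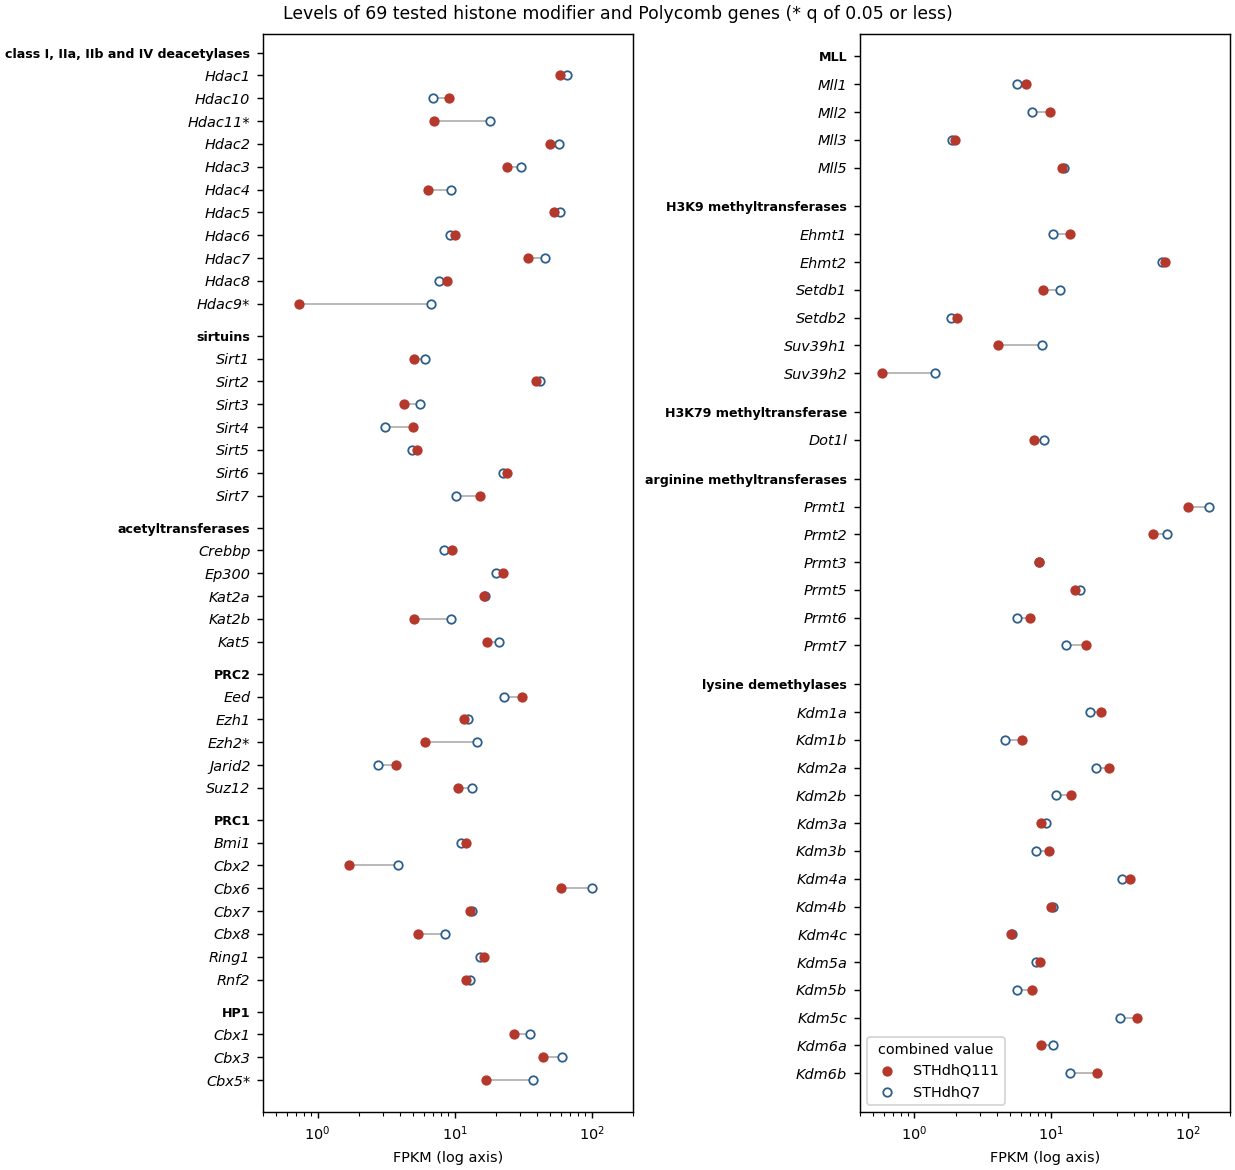
FPKM (log axis) of 69 tested genes in STHdhQ111 (filled) and STHdhQ7 (open), grouped by role, with 1 combined value per line and an asterisk for called genes. The widest gap is that of Hdac9 (0.732 FPKM in STHdhQ111, 6.76 FPKM in STHdhQ7), and for most other genes the points lie close together.

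Most of the log2 ratios were small. Their median was -0.04, beside -0.05 over all tested genes. Ratios within 0.5 of 0 on this log2 scale were found for 56 of the 70 (80.0%), beside 62.2% of all tested genes. After leaving out genes under a mean of 1 FPKM, the shares were 81.2% of 69 genes of the set and 64.6% of 11534 genes of the table. The set was expressed at levels near those of all tested genes, with 58 of the 70 at 5 FPKM or more in both lines. In each line, 40 of the 70 were at or above the median level of all tested genes. The median level of the set was 10.4 FPKM in STHdhQ111 and 10.95 FPKM in STHdhQ7. That of all tested genes was 9.43 FPKM in STHdhQ111 and 9.81 FPKM in STHdhQ7. The order of the 70 levels was alike in the 2 lines, with a Spearman correlation of 0.918, beside 0.895 over all tested genes. These points share 2 combined values and their scaling, so the correlation is a description. In bulk RNA, fewer cells expressing a gene and less RNA per cell cannot be told apart.

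**Figure D2:**
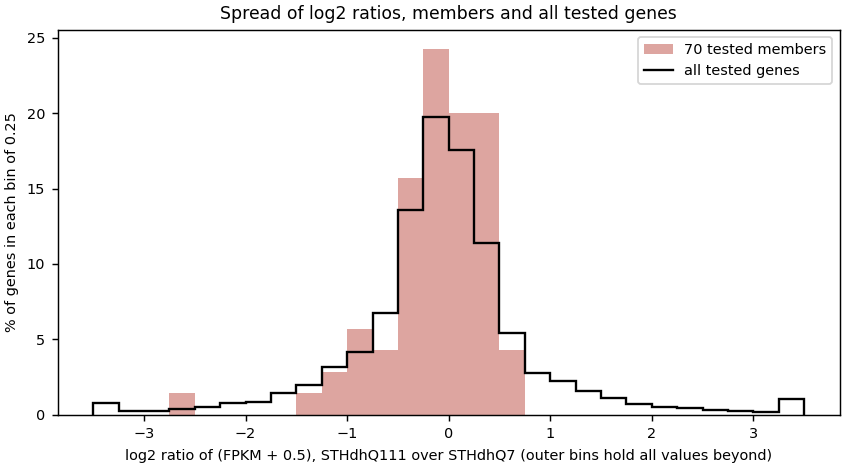
Percent of genes (vertical axis) per bin of 0.25 in the log2 ratio of (FPKM + 0.5), STHdhQ111 over STHdhQ7, for the 70 tested genes (filled) and all 12740 tested genes (line); the outer bins hold all values beyond. The set has a shorter right side, ending below 0.75, and 1 gene, Hdac9, far to the left.

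The size of change that could be called was limited. Dividing the log2 fold change by the test statistic in the authors' deposited table, signs dropped, gives the standard error behind each test, called the implied SE here. It had a median of 0.41 in the set and ranged between 0.37 and 1.67. At that median error, a log2 fold change of 1.11, or 2.16-fold, was the smallest that would have been called. Of the 66 uncalled genes, 24 had a 95% interval that lay within 2-fold in both directions. The 4 genes with an implied SE over 0.7 (Sirt3, Suv39h2, Hdac7 and Setdb1) all belong to the 10 genes whose deposited locus overlaps another gene symbol of the table.

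**Figure D3:**
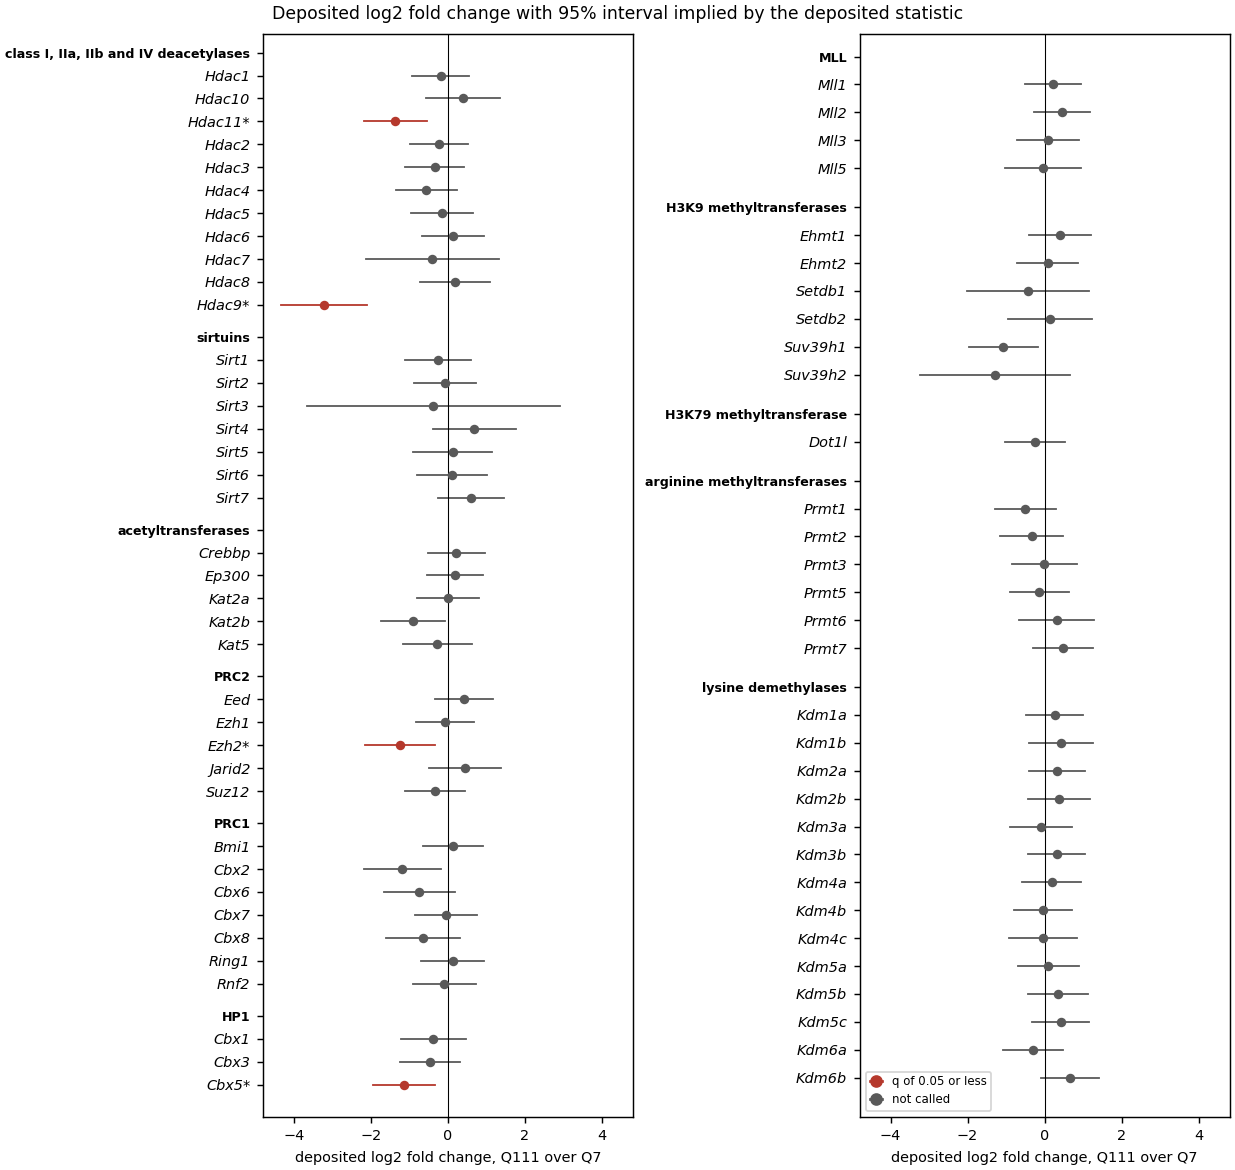
Log2 fold change from the authors' table, STHdhQ111 over STHdhQ7 (points), with the 95% interval from the implied SE (lines), for 69 tested genes by role. The 4 called genes (red) lie left of 0 with their intervals, and Suv39h1, Cbx2 and Kat2b are uncalled genes whose intervals also end below 0.

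Within PRC2, the catalytic subunit Ezh2 fell and its paralogue Ezh1 did not pass the test. Ezh2 (mm9 chr6:47480273-47545029) was listed at 6.13 FPKM in STHdhQ111 and 14.6 FPKM in STHdhQ7, 2.39-fold lower in STHdhQ111. For Ezh2 the authors' deposited table gives a log2 fold change of -1.26 (implied SE 0.46) and a q of 0.0497, just inside the threshold. Ezh1 (mm9 chr11:101052429-101087764), a less active H3K27 methyltransferase, was listed at 11.8 FPKM in STHdhQ111 and 12.5 FPKM in STHdhQ7. Ezh2 made up 34.2% of the summed Ezh FPKM in STHdhQ111 and 54.0% in STHdhQ7. Ezh1 was thus the more abundant of the pair in STHdhQ111 and Ezh2 in STHdhQ7, a difference that was not tested. The remaining PRC2 genes were not called and did not share a direction. Eed, which binds the methylated tail, was listed at 30.9 FPKM in STHdhQ111 and 23.1 FPKM in STHdhQ7. Suz12, a scaffold subunit, was listed at 10.7 FPKM in STHdhQ111 and 13.5 FPKM in STHdhQ7. Jarid2, which helps to recruit the complex, was listed at 3.74 FPKM in STHdhQ111 and 2.76 FPKM in STHdhQ7.

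**Figure D4:**
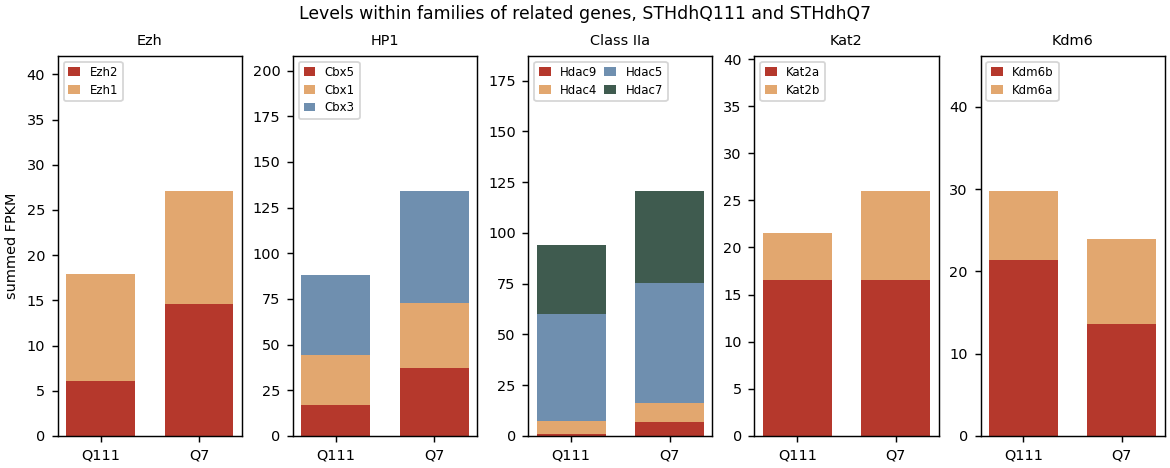
Summed FPKM of 5 families of related genes, stacked by gene, in STHdhQ111 (left bar) and STHdhQ7 (right bar) of each panel; vertical axes differ between panels and start at 0. Ezh2 takes 34.2% of the Ezh bar in STHdhQ111 and 54.0% in STHdhQ7, and Hdac9 takes 0.777% of the class IIa bar in STHdhQ111 and 5.60% in STHdhQ7.

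Promoters of 5 genes are shown because they set 3 called genes (Ezh2, Cbx5 and Hdac11) beside uncalled paralogues (Ezh1 and Cbx3). Each holds 250 bases before and 50 bases after the start site farthest upstream, from RefSeq on GRCm38.p6, which is not the build of the deposited loci. They lie at chr6:47594981-47595280 (minus strand), chr11:101226414-101226713 (minus), chr15:103239803-103240102 (minus), chr6:51470366-51470665 (plus) and chr6:91156565-91156864 (plus), written 5′ to 3′ with any match to TTTGGCGC in capitals.
Ezh2: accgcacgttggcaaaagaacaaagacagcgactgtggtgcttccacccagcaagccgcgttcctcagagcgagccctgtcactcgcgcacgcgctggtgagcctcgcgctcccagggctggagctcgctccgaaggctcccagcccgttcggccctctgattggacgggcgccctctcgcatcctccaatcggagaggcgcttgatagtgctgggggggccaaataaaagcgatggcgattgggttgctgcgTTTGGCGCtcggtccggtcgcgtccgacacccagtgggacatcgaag
Ezh1: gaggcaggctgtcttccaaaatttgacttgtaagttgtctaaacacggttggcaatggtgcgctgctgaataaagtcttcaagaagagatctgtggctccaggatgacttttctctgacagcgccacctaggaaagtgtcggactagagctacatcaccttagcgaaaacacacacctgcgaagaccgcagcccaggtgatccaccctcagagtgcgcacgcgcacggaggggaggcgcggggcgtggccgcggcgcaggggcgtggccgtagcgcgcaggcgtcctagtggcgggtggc
Cbx5: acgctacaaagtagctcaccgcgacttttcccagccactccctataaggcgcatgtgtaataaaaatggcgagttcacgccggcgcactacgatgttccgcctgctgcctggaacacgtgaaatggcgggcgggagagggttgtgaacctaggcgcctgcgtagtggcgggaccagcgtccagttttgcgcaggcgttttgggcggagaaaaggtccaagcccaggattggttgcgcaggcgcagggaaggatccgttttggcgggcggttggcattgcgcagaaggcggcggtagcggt
Cbx3: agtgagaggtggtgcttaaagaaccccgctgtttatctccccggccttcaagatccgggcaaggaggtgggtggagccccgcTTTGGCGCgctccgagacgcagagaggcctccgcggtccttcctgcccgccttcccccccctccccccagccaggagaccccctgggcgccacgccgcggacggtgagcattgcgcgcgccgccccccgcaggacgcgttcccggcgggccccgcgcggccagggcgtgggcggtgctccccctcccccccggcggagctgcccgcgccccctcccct
Hdac11: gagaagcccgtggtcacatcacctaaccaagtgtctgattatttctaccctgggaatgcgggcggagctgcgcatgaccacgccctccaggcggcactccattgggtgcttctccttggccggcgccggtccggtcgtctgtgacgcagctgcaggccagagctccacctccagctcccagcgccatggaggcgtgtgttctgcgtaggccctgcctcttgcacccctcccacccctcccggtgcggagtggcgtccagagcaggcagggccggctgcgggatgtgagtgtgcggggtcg
TTTGGCGC is a form of the element bound by E2F factors, which govern genes of DNA synthesis. On either strand it occurred in the promoters of Ezh2 and Cbx3, that is in 2 of 79 promoters of the 59 genes matched by symbol (2.53%). It occurred in 0.514% of all 32851 promoters and in 0.954% of those of tested genes. The related TTTCCCGC occurred in Suz12 and Sirt4 (2.53%), beside 1.07% of all promoters and 1.92% of those of tested genes. Of these 4 genes only Ezh2 was called. Only exact letters were searched, so near matches were not counted. An example is TTTGGCGG in the printed promoter of the called Cbx5, a form whose share over other promoters is not known here.

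Other motifs were searched on either strand and counted separately, so their matches may overlap. The letters TTTGAA of the cell cycle homology region were found in 13.9% of the 79 promoters, in 11.7% of those of tested genes and in 17.9% of all promoters. Of the called genes with a matched promoter, Hdac9 had these letters and Ezh2, Cbx5 and Hdac11 did not. The core of the interferon-stimulated response element was found in 2.53% of the 79 promoters, in 3.00% of those of tested genes and in 3.44% of all promoters. Its matches in the set were in Kat5 and in the called Cbx5, there at a start site other than the one printed. GGGCGG, the GC box, was found in 65.8% of the 79 promoters, in 63.4% of those of tested genes and in 35.7% of all promoters. CCAAT was found in 40.5% of the 79 promoters, in 38.1% of those of tested genes and in 37.4% of all promoters. The median number of CpG pairs per promoter was 23 in the set, beside 20 for tested genes and 7 for all promoters. A match is letters in a window and does not show that a factor binds there.

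PRC1 had no called gene, where 13.5% of all tested genes were called. The ubiquitin ligase Rnf2 was listed at 12.1 FPKM in STHdhQ111 and 12.9 FPKM in STHdhQ7, and its paralogue Ring1 at 16.5 FPKM in STHdhQ111 and 15.2 FPKM in STHdhQ7. Bmi1, a partner of both, was listed at 12.2 FPKM in STHdhQ111 and 11.05 FPKM in STHdhQ7. These core subunits had close values in the 2 lines, while the log2 ratios of the chromobox readers Cbx2, Cbx6, Cbx7 and Cbx8 were below 0 (not that of Cbx7 once ratios were centred on the median of expressed genes). Cbx6, the most abundant of these, was listed at 60.3 FPKM in STHdhQ111 and 101 FPKM in STHdhQ7, in a locus that overlaps Nptxr and Npcd. Cbx2 was listed at 1.70 FPKM in STHdhQ111 and 3.86 FPKM in STHdhQ7. For Cbx2 the authors' deposited table gives a log2 fold change of -1.18 (implied SE 0.51) and a q of 0.1197, outside the threshold. Cbx8 and Cbx7 differed less. Cbx8 was listed at 5.41 FPKM in STHdhQ111 and 8.53 FPKM in STHdhQ7. Cbx7 was listed at 13.01 FPKM in STHdhQ111 and 13.4 FPKM in STHdhQ7.

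Neighbouring cell cycle inhibitors that Polycomb complexes are known to repress, Cdkn2a and Cdkn2b, were abundant in both lines and not called. Cdkn2a was listed at 548 FPKM in STHdhQ111 and 698 FPKM in STHdhQ7. Cdkn2b was listed at 121 FPKM in STHdhQ111 and 144 FPKM in STHdhQ7.

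Among the genes of heterochromatin, which is marked by methylation at H3K9 and bound by the HP1 proteins, 1 was called. Cbx5 (mm9 chr15:103021977-103070247), which encodes HP1 alpha, fell to 17.04 FPKM in STHdhQ111, against 37.4 FPKM in STHdhQ7. For Cbx5 the authors' deposited table gives a log2 fold change of -1.13 (implied SE 0.41) and a q of 0.0447. The other HP1 genes were not called, although their values were also lower in STHdhQ111. Cbx1 (HP1 beta) was listed at 27.2 FPKM in STHdhQ111 and 35.5 FPKM in STHdhQ7. Cbx3 (HP1 gamma) was listed at 44.1 FPKM in STHdhQ111 and 61.3 FPKM in STHdhQ7. Together the 3 genes summed to 88.4 FPKM in STHdhQ111 and 134.2 FPKM in STHdhQ7, and Cbx5 contributed 19.3% of the sum in STHdhQ111 and 27.9% in STHdhQ7.

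None of the 6 tested H3K9 methyltransferases was called, beside 13.5% of all tested genes. Suv39h1, which makes the trimethyl mark that HP1 binds, came nearest, at 4.06 FPKM in STHdhQ111 and 8.56 FPKM in STHdhQ7. For Suv39h1 the authors' deposited table gives a log2 fold change of -1.07 (implied SE 0.46) and a q of 0.114. Suv39h2, its paralogue, was listed at 0.580 FPKM in STHdhQ111 and 1.41 FPKM in STHdhQ7, with an implied SE of 0.997 and a locus that overlaps Dclre1c. The enzymes of the lower methylation states at H3K9 had closer values. Ehmt2 (G9a) was listed at 67.3 FPKM in STHdhQ111 and 63.7 FPKM in STHdhQ7. Ehmt1 (GLP) was listed at 13.7 FPKM in STHdhQ111 and 10.4 FPKM in STHdhQ7. Setdb1, a methyltransferase that silences retroelements, was listed at 8.66 FPKM in STHdhQ111 and 11.6 FPKM in STHdhQ7. The related Setdb2 was among the lowest of the set, at 2.05 FPKM in STHdhQ111 and 1.86 FPKM in STHdhQ7.

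The steepest change of the set was in the deacetylases. Hdac9 (mm9 chr12:35056362-35213754), a class IIa deacetylase that acts as a corepressor of MEF2 factors, fell to 0.732 FPKM in STHdhQ111, against 6.76 FPKM in STHdhQ7. It was 9.24-fold lower in STHdhQ111, and for Hdac9 the authors' deposited table gives a log2 fold change of -3.21 (implied SE 0.57) and a q of 6.93e-07. Ranked among all tested genes, Hdac9 stood at percentile 8.86 in STHdhQ111 and at percentile 40.6 in STHdhQ7. The deposited Hdac9 locus spans 157.4 kb, 18.1% of the RefSeq gene on GRCm38.p6 (869.5 kb), so the value may not cover every transcript start. The same limit holds for other genes of the set, among them Cbx7 (30.4%), Sirt4 (52.8%), Cbx8 (53.7%) and Kdm6b (69.3%). Hdac11 (mm9 chr6:91106809-91124677), the only class IV deacetylase, fell to 7.07 FPKM in STHdhQ111, against 18.2 FPKM in STHdhQ7. It was 2.58-fold lower in STHdhQ111, and for Hdac11 the authors' deposited table gives a log2 fold change of -1.37 (implied SE 0.42) and a q of 0.0122.

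The 9 remaining deacetylases were not called. The class I enzymes, which work in nuclear corepressor complexes, were the most abundant together, summing to 140.8 FPKM in STHdhQ111 and 162.7 FPKM in STHdhQ7. Hdac1 was listed at 58.7 FPKM in STHdhQ111 and 66.6 FPKM in STHdhQ7. Hdac2, its close paralogue, was listed at 49.3 FPKM in STHdhQ111 and 57.8 FPKM in STHdhQ7. Hdac3, the enzyme of the NCoR complex, was listed at 24.1 FPKM in STHdhQ111 and 30.6 FPKM in STHdhQ7. Hdac8 had the lowest level of the class, at 8.75 FPKM in STHdhQ111 and 7.68 FPKM in STHdhQ7. In class IIa all 4 ratios were below 0, where 45.5% of all tested genes had a ratio above 0. Hdac5 was listed at 52.7 FPKM in STHdhQ111 and 59.1 FPKM in STHdhQ7. Hdac7 was listed at 34.3 FPKM in STHdhQ111 and 45.4 FPKM in STHdhQ7, in a locus that overlaps Slc48a1. Hdac4 was listed at 6.42 FPKM in STHdhQ111 and 9.49 FPKM in STHdhQ7. Hdac9 was a small part of this class, 0.777% of its summed FPKM in STHdhQ111 and 5.60% in STHdhQ7. The class IIb genes were slightly higher in value in STHdhQ111. The tubulin deacetylase Hdac6 was listed at 10.1 FPKM in STHdhQ111 and 9.28 FPKM in STHdhQ7. Hdac10, which deacetylates polyamines, was listed at 9.09 FPKM in STHdhQ111 and 6.93 FPKM in STHdhQ7.

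None of the 7 sirtuins, deacylases that use NAD as a cofactor, was called, beside 13.5% of all tested genes. Their FPKM summed to 98.6 in STHdhQ111 and 94.0 in STHdhQ7, and their log2 ratios of (FPKM + 0.5) lay between -0.35 and 0.61. Sirt1, which deacetylates histones and transcription factors in the nucleus, was listed at 5.08 FPKM in STHdhQ111 and 6.11 FPKM in STHdhQ7. Sirt2, a mostly cytoplasmic enzyme and the most abundant sirtuin here, was listed at 39.3 FPKM in STHdhQ111 and 41.7 FPKM in STHdhQ7. The widest ratios were those of Sirt4 and Sirt7. Mitochondrial Sirt4 was listed at 4.97 FPKM in STHdhQ111 and 3.09 FPKM in STHdhQ7. Nucleolar Sirt7 was listed at 15.4 FPKM in STHdhQ111 and 10.3 FPKM in STHdhQ7. Mitochondrial Sirt3 had the least precise value of the set, with an implied SE of 1.67 and a locus that overlaps Ric8, and was listed at 4.26 FPKM in STHdhQ111 and 5.55 FPKM in STHdhQ7. The last members of the family had close values. Nuclear Sirt6 was listed at 24.2 FPKM in STHdhQ111 and 22.4 FPKM in STHdhQ7. Mitochondrial Sirt5 was listed at 5.33 FPKM in STHdhQ111 and 4.90 FPKM in STHdhQ7.

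The acetyltransferases included no called gene among 5, where 13.5% of all tested genes were called. Crebbp, which encodes CBP, was listed at 9.63 FPKM in STHdhQ111 and 8.31 FPKM in STHdhQ7. For Crebbp the authors' deposited table gives a log2 fold change of 0.21, with an implied 95% interval of -0.53 to 0.96, which does not reach a 2-fold change in either direction. Ep300, which encodes p300, was listed at 22.7 FPKM in STHdhQ111 and 20.03 FPKM in STHdhQ7, with an interval of -0.55 to 0.91. The balance of the pair was nearly the same in the 2 lines, with Ep300 at 70.2% of the summed FPKM in STHdhQ111 and 70.7% in STHdhQ7. The GCN5 gene Kat2a was listed at 16.5 FPKM in STHdhQ111 and 16.6 FPKM in STHdhQ7. Its paralogue Kat2b, which encodes PCAF, was listed at 5.03 FPKM in STHdhQ111 and 9.46 FPKM in STHdhQ7 and was not called. For Kat2b the authors' deposited table gives a log2 fold change of -0.91 (implied SE 0.42) and a q of 0.162. The ratio of Kat2a to Kat2b was therefore higher in STHdhQ111 (3.28) than in STHdhQ7 (1.75), a difference that was not tested. Kat5, the catalytic subunit of the TIP60 complex, was listed at 17.3 FPKM in STHdhQ111 and 20.98 FPKM in STHdhQ7.

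The MLL and Dot1l methyltransferases, most of them linked to active genes, were not called either, where 13.5% of all tested genes were. Mll1, an H3K4 methyltransferase, was listed at 6.56 FPKM in STHdhQ111 and 5.64 FPKM in STHdhQ7. The Mll2 row lies on chromosome 15, where RefSeq places Kmt2d, an H3K4 methyltransferase of enhancers, and was listed at 9.80 FPKM in STHdhQ111 and 7.17 FPKM in STHdhQ7. Its paralogue Mll3 was low in both lines, at 1.99 FPKM in STHdhQ111 and 1.89 FPKM in STHdhQ7. Mll5, a family member whose histone activity is disputed, was the most abundant of the family. Mll5 was listed at 11.96 FPKM in STHdhQ111 and 12.4 FPKM in STHdhQ7, in a locus that overlaps Srpk2. Dot1l, which methylates H3K79 within transcribed genes, was listed at 7.47 FPKM in STHdhQ111 and 8.87 FPKM in STHdhQ7.

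The arginine methyltransferases held the most abundant gene of the set. They had no called gene among 6 tested, beside 13.5% of all tested genes. Prmt1, the main enzyme for asymmetric dimethylation, was listed at 99.5 FPKM in STHdhQ111 and 141 FPKM in STHdhQ7. Prmt2 was listed at 55.2 FPKM in STHdhQ111 and 69.9 FPKM in STHdhQ7, in a locus that overlaps another symbol. Prmt5, the main enzyme for symmetric dimethylation, was listed at 14.8 FPKM in STHdhQ111 and 16.3 FPKM in STHdhQ7. These 3 had lower values in STHdhQ111, while Prmt7 and Prmt6 had higher ones. Prmt7, an enzyme of monomethylation, was listed at 17.9 FPKM in STHdhQ111 and 12.8 FPKM in STHdhQ7. Prmt6 was listed at 7.02 FPKM in STHdhQ111 and 5.66 FPKM in STHdhQ7. Prmt3, which methylates a ribosomal protein, was listed at 8.11 FPKM in STHdhQ111 and 8.17 FPKM in STHdhQ7.

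Of the 14 tested lysine demethylases, none was called, beside 13.5% of all tested genes. The log2 ratio was above 0 for 10 and below 0 for 4 (12 and 2 once centred on the median of expressed genes). Before centring, 45.5% of all tested genes had a ratio above 0. The ratios lay between -0.28 and 0.64 with a median of 0.28. The 5 tested enzymes that remove methyl groups at H3K4 all had ratios above 0, and the 95% interval of each held 0. Kdm1a (LSD1), a partner of the CoREST repressor, was listed at 23.1 FPKM in STHdhQ111 and 19.3 FPKM in STHdhQ7. Kdm1b, its paralogue, was listed at 6.14 FPKM in STHdhQ111 and 4.56 FPKM in STHdhQ7. The Kdm5 enzymes, which remove the trimethyl mark of active promoters, differed most in Kdm5c. The X-linked Kdm5c was listed at 42.4 FPKM in STHdhQ111 and 31.8 FPKM in STHdhQ7. Kdm5b was listed at 7.22 FPKM in STHdhQ111 and 5.65 FPKM in STHdhQ7. Kdm5a was listed at 8.24 FPKM in STHdhQ111 and 7.72 FPKM in STHdhQ7, in a locus that overlaps another symbol.

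The demethylases that remove the Polycomb mark at H3K27 had ratios of opposite sign. Kdm6b (JMJD3) was listed at 21.4 FPKM in STHdhQ111 and 13.6 FPKM in STHdhQ7. For Kdm6b the authors' deposited table gives a log2 fold change of 0.66 (implied SE 0.39), the highest of the demethylases, and a q of 0.357. Kdm6a (UTX) was listed at 8.37 FPKM in STHdhQ111 and 10.3 FPKM in STHdhQ7. Kdm6b was 71.9% of the summed FPKM of the pair in STHdhQ111 and 57.0% in STHdhQ7, a difference that was not tested. The H3K36 demethylases Kdm2a and Kdm2b both had ratios above 0. Kdm2a was listed at 26.2 FPKM in STHdhQ111 and 21.1 FPKM in STHdhQ7. Kdm2b, which brings a PRC1 variant to CpG islands, was listed at 14.03 FPKM in STHdhQ111 and 10.9 FPKM in STHdhQ7. The 5 tested demethylases that act at H3K9 (Kdm3a, Kdm3b, Kdm4a, Kdm4b and Kdm4c) had ratios on both sides of 0. Their levels ranged between 5.07 and 37.5 FPKM in STHdhQ111 and between 5.20 and 33.1 FPKM in STHdhQ7, and Kdm4a was the highest in both lines.

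Other genes of the same machinery also showed few calls. Of 90 tested genes in 5 lists, 1 was called higher, 2 were called lower and 87 were not called. That makes 3.33% called, beside 13.5% of all tested genes. No gene was called among 20 other histone methyltransferases, of which 0 were higher and 1 was lower at the authors' unadjusted Cuffdiff p of 0.05 or less. No gene was called among 23 other Polycomb subunits, of which 1 was higher and 2 were lower at that p. Of 15 other acetyltransferases and demethylases, Hr, a nuclear corepressor with a demethylase domain, fell to 1.37 FPKM in STHdhQ111, against 6.43 FPKM in STHdhQ7 (q of 0.000129 in the authors' deposited table). Of 11 subunits and partners of the H3K4 methyltransferase complexes, Psip1, which tethers MLL complexes to chromatin, fell to 17.3 FPKM in STHdhQ111, against 37.00 FPKM in STHdhQ7 (q of 0.0330 in the authors' deposited table). Of 21 genes of deacetylase corepressor complexes, Chd3, a remodelling ATPase of the NuRD complex, rose to 31.6 FPKM in STHdhQ111, against 5.20 FPKM in STHdhQ7 (q of 8.95e-10 in the authors' deposited table).

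**Figure D5:**
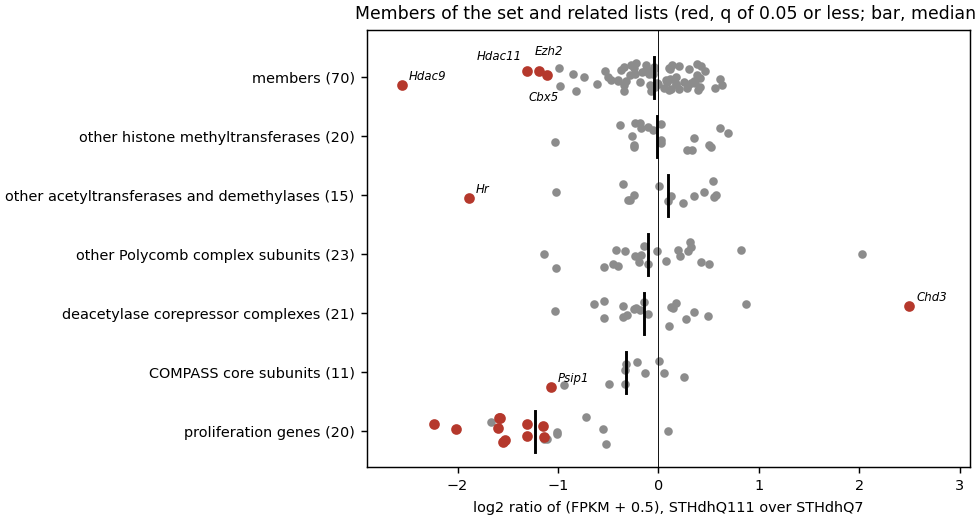
Log2 ratio of (FPKM + 0.5), STHdhQ111 over STHdhQ7 (horizontal axis), for the tested genes of the set, of 5 related lists and of a proliferation list; red points are called and bars are medians. The medians of the 5 lists lie between -0.32 and 0.10, that of the set is -0.04, and that of the proliferation list is -1.23.

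Many proliferation genes fell in STHdhQ111. Of 20 tested, 11 were called lower (55.0%, beside 7.17% of all tested genes), 0 were called higher and 9 were not called. At the authors' unadjusted Cuffdiff p of 0.05 or less, 14 were lower and 0 were higher. Their summed level was 417.6 FPKM in STHdhQ111 and 1086 FPKM in STHdhQ7, and none was at 0 in either line. The replication helicase subunit Mcm3 fell to 21.1 FPKM in STHdhQ111, against 102 FPKM in STHdhQ7. Mcm5, another subunit, fell to 17.4 FPKM in STHdhQ111, against 72.01 FPKM in STHdhQ7. Among mitotic kinases, Cdk1 fell to 8.19 FPKM in STHdhQ111, against 25.4 FPKM in STHdhQ7, and Aurkb fell to 4.47 FPKM in STHdhQ111, against 14.4 FPKM in STHdhQ7. The list had a median log2 ratio of -1.23, and 19 of 20 ratios were below 0, where 45.5% of all tested genes had a ratio above 0.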

How the data were processed

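Each line gave poly(A) RNA that was copied with random primers, per the labels' protocols, by a method not described as marking strand, so overlapping antisense genes cannot be separated. The submitters' processing notes name TopHat 1.4.0 with Bowtie 0.12.7, Cufflinks 2.0.2 with Cuffdiff, and mm9; their options and annotation were not given in the sources used here. Per the file headers, the deposited table holds the authors' combined FPKM of each line. Beside it stand the authors' log2 fold change, statistic, p-value and q-value. Depth is unknown. Whether the combined replicates were separate cultures is not said, so these p-values may reflect technical spread.

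No test was run here. Calls are the authors' q of 0.05 or less over all 12740 tested genes. The implied SE is the absolute value of the log2 fold change over the statistic. Intervals use 1.96 of it, since the deposited p followed the normal tail to within 2.68e-06. In all 70 tested genes of the set the statistic was opposite in sign to the fold change. Directions here follow the FPKM values. Level ratios used a pseudocount of 0.5 FPKM, which understates changes of low genes. Deposited starts were read as counting from 0 and raised by 1. The set, roles, lists and motifs were chosen with earlier results of these data known. By the naming rule, genes of the set are given by role, with full statistics for called genes (1 uncalled gene is counted but not reported here); of other lists, called genes are named, or the 4 with the largest change. Kat2b, Cbx2, Suv39h1, Crebbp, Ep300 and Kdm6b were given statistics after their values were seen. Counting steps were tested on simulated data. Python 3.11.15, numpy 2.4.6, pandas 2.3.3, scipy 1.17.1 and matplotlib 3.10.9 were used.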

Additional observations from a re-analysis of the deposited data

How the results depend on the processing

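The number of genes called lower was 4. It became 1 (Hdac9) at a q of 0.01 or less and 1 with a minimum of 3-fold, and 7 at an unadjusted p of 0.05 or less. It was 4 at a q of 0.1 or less, after a filter on mean FPKM, and without the loci that overlap another symbol. With a pseudocount of 0.1 FPKM, 7 genes in place of 4 were past 2-fold lower. The median log2 ratio of the set, -0.04, turned to 0.00775 once ratios were centred on the median of expressed genes (-0.05), which turned the sign of 6 uncalled genes near 0 (Cbx7, Kat2a, Kdm4b, Kdm4c, Mll5 and Prmt3). In the other 25 of 30 alternatives the values kept their direction and size, and the counts called higher or past 2-fold higher were 0 in each. No paired analysis was possible because each line has 1 combined value, and for the same reason no replicate could be left out. Depth is unknown, and an implied SE near 0.41 limits calls to changes of about 2.16-fold or more.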

Other observations

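Chd3 and Chd4 encode alternative remodelling ATPases of the NuRD deacetylase complex. Chd4 was listed at 44.6 FPKM in STHdhQ111 and 55.5 FPKM in STHdhQ7 and was not called, so the ratio of Chd3 to Chd4 was 0.710 in STHdhQ111 and 0.0936 in STHdhQ7. The difference between these ratios was not tested. This pair was chosen after its values were seen. Chd3 (mm9 chr11:69157853-69182893) also lies near Kdm6b (mm9 chr11:69212020-69227177), whose value was higher in STHdhQ111 but not called. Whether these 2 differences are related was not tested.

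Sfmbt2, an imprinted gene of the Polycomb group, was listed at 1.547 FPKM in STHdhQ111 and 0.00343 FPKM in STHdhQ7. For Sfmbt2 the authors' deposited table gives a log2 fold change of 8.82 (implied SE 5.49) and a q of 0.407, so it was not called. It was chosen after its values were seen.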
